A study of Mus musculus with 6 samples.

Results

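Sugar enters and leaves cells through 2 unrelated kinds of carrier. The facilitative carriers of the Slc2 family (GLUT proteins) let hexoses move down their gradient, and the carriers of the Slc5 family (SGLT proteins) couple uptake to the inward flow of sodium, which the sodium pump maintains. In the small intestine, enterocytes take up glucose and galactose from the lumen through SGLT1, the product of Slc5a1, and fructose through GLUT5, the product of Slc2a5, while GLUT2, the product of Slc2a2, passes hexoses on to the blood. Here 10 sugar transporter genes were examined, beside the sweet and umami taste receptor gene Tas1r3. They were chosen by name, as the facilitative genes Slc2a1, Slc2a2, Slc2a3, Slc2a5, Slc2a7 and Slc2a8 and the sodium-coupled genes Slc5a1, Slc5a4a, Slc5a4b and Slc5a9, and all 10 were among the 23420 genes measured.

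The 6 libraries form 1 group, ileal tuft cells of C57BL/6J mice heterozygous for the reporter allele Gfi1b-eGFP, for which the labels name no treatment. Mice of the study were 6 to 12 wk old, and the age of each is not in the labels. In these animals green fluorescent protein is made from the locus of Gfi1b, a transcription factor gene active in tuft cells and also in blood cell precursors, and GFP+EpCam+CD45- cells were collected. The labels name each library a mouse replicate, and the design holds no other cell type, so every comparison is between genes within a library and none is between tuft cells and other epithelium. Values are TPM, which give each gene's share of all transcripts after correction for transcript length, so levels of different genes can be set side by side where reads cover whole transcripts. The methods describe such a full-length protocol, but the labels also name 3' and droplet preparations for every library. With reads from 3' ends, the correction would shift genes of different length against each other, and the carriers' transcripts run from 1578 to 5569 bases.

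Depth cannot be read from TPM. Each library listed between 13044 and 13308 genes above 0, and the ribosomal RNA precursor Rn45s took 23.1% to 32.6% of the TPM. All 12 tuft cell markers were above 0 in all 6 libraries, against 47.2% of all genes, with a summed level of 6406 to 11112 TPM. Genes listed as markers of other cell types were present as well. The 13 enterocyte markers, all above 0 in every library, summed to 7882 to 16585 TPM led by Fabp1, the 7 Paneth cell markers to 6885 to 27717 TPM led by Reg3g, and the 7 goblet cell markers to 778 to 4318 TPM led by Zg16. The 11 enteroendocrine markers summed to 387 to 539 TPM, most of it Sct, with 3 of them above 0 in every library. The 5 stem cell markers, led by Olfm4, summed to 317 to 788 TPM, and the 6 T cell markers, led by Ptprc, to 122 to 286 TPM. Ptprc averaged 112 TPM, against a median of 10.4 TPM over the means of the 6 genes. Which cells its transcripts came from was not tested. Of the blood markers, Hba-a1, a haemoglobin gene, ranged from 1.61 to 949.96 TPM. The part of these cells in the transporter levels was not tested, and in bulk RNA fewer cells of a type cannot be told apart from less RNA per cell.

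Among the 10 carriers, most of the transcripts came from 2 genes. Slc2a1, which encodes the basal glucose carrier GLUT1, had 73.3 ± 23.6 TPM, and Slc5a1 had 64.8 ± 24.1 TPM (SD, n = 6 each). Together they made up 91.8% to 96.0% of the summed TPM of the 10 genes, a sum that lay between 119 and 210 TPM (median 143). No value of the other 8 genes exceeded 7.45 TPM in any library, while the lowest values of Slc2a1 and Slc5a1 were 49.5 and 38.0 TPM. Among the genes listed above 0 in the same library, Slc2a1 stood between the 83.4th and 91.8th percentile and Slc5a1 between the 78.5th and 93.0th. Of the 10 genes, 2 were above 0 in all 6 libraries, against 47.2% of all genes in the table. A further 7 were above 0 in some libraries (19.9% of all genes), and 1, Slc2a3, was at 0 in every library (32.9% of all genes).

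**Figure D1:**
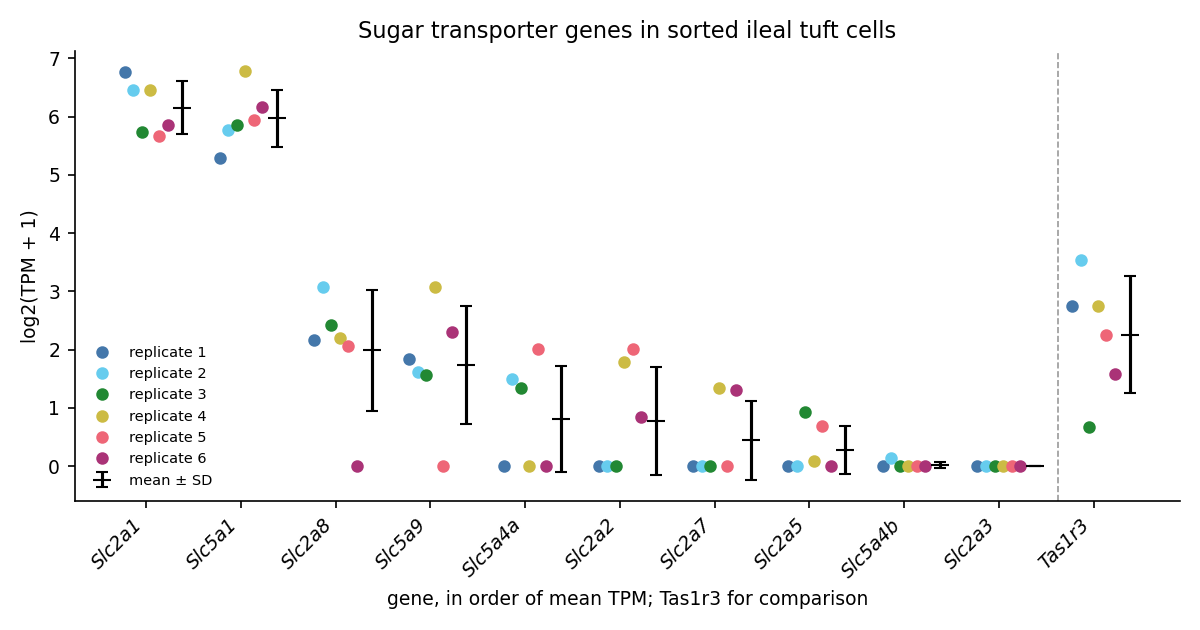
Level of each sugar transporter gene and of Tas1r3 on the log2(TPM + 1) scale (vertical axis), by gene in order of mean TPM (horizontal axis). Coloured points are the 6 libraries and the black bar beside them is the mean ± SD. Slc2a1 and Slc5a1 lie above every value of the other 8 carriers, most of which are at 0 in some libraries.

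How far reads of these genes can be told apart depends on their sequences. The coding sequences of the Slc2 genes shared 56.8% to 70.4% of aligned bases over 15 pairs, and those of the Slc5 genes 64.5% to 79.6% over 6 pairs, the highest for Slc5a4a and Slc5a4b. Of all stretches of 25 bases, the seed length of the authors' alignment, 5.47% of those in Slc5a4a and 10.5% of those in Slc5a4b also occur in transcripts of other genes, against 0.270% for Slc5a1, 0.0309% for Slc2a1, 1.06% for Slc2a2 and 0.127% for Slc2a3. None of the 25-base stretches of Slc2a5, Slc2a7, Slc2a8 or Slc5a9 did. Of its stretches, Slc5a4a shared 4.09% with Slc5a4b, and Slc5a4b shared 2.63% with Slc5a4a. These shares are of exact matches, while the authors' alignment also allowed a mismatch. RSEM divides reads that fit several transcripts by estimated shares, so low values of the Slc5a4 pair are uncertain. The 100 coding bases at which Slc5a4a and Slc5a4b are most alike, bases 1129 to 1228 from the start codon in each, are shown with the aligned stretch of Slc5a1. Capitals mark bases of the Slc5a4 pair that differ between them (3 of 100), and bases of Slc5a1 that differ from Slc5a4a (10 of 100), so that even the abundant Slc5a1 is close to both there.
Slc5a4a: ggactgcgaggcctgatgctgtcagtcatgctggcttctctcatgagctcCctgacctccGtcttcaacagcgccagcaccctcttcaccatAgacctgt
Slc5a4b: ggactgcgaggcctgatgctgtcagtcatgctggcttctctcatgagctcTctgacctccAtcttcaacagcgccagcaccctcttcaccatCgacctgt
Slc5a1: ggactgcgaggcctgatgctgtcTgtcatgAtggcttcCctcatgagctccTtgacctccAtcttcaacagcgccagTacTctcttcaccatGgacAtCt

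Slc2a1 lies on chromosome 4 of GRCm38 (119108711 to 119137983, plus strand, 10 exons, ENSMUSG00000028645.11 in GENCODE M21). Its values in replicates 1 to 6 were 107, 87.0, 52.6, 86.6, 49.5 and 56.8 TPM. Replicates 1, 2 and 4 were thus high, and replicates 3, 5 and 6 lay close together below them, with a range of 2.17-fold from lowest to highest. Both abundant carriers varied at least 2-fold, as did 71.6% of the 8935 genes that were above 0 in every library and averaged 5 TPM or more, and the other 8 carriers were below that filter. The range of Slc2a1 was matched or exceeded by 63.8% of those genes. An exon of Gm12868, on the opposite strand, overlaps Slc2a1, and whether reads were counted by strand is not given in the sources used here.

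Slc5a1 lies on chromosome 5 (33104219 to 33162870, plus strand, 15 exons, ENSMUSG00000011034.6). Its values in the same order were 38.0, 53.5, 57.2, 109, 60.3 and 71.1 TPM. Replicate 4 was highest and replicate 1, where Slc2a1 peaked, was lowest. Its range was 2.86-fold, and 41.0% of the same 8935 genes varied as widely or more. Slc2a1 exceeded Slc5a1 in replicates 1 and 2, and Slc5a1 exceeded Slc2a1 in the other 4 libraries, so that the ratio of Slc5a1 to Slc2a1 went from 0.354 in replicate 1 and 0.614 in replicate 2 to between 1.09 and 1.26 in replicates 3 to 6. The difference of Slc2a1 from Slc5a1, 0.19 ± 0.74 on the log2(TPM + 1) scale (SD, n = 6), was smaller than its spread (p = 0.656 by a two-sided exact permutation test that flips the signs of the 6 differences, called the sign-flip test from here on). Without replicate 1 it changed sign, to -0.069.

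**Figure D2:**
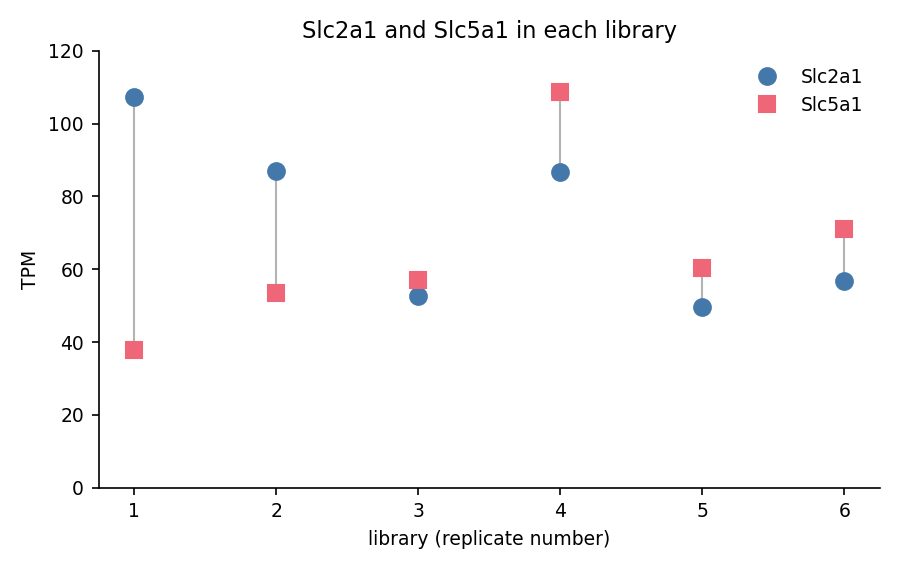
TPM (vertical axis, from 0) of Slc2a1 (circles) and Slc5a1 (squares) in each of the 6 libraries (horizontal axis). Grey lines join the values of a library. Slc2a1 is the higher of the pair in replicates 1 and 2 and Slc5a1 in replicates 3 to 6.

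The sequence before the start of transcription is shown for the 2 abundant carriers and for Slc2a5, which has the same share of G and C there as Slc2a1 (66.4%) and was near 0. Sequences are from RefSeq on GRCm38.p6, whose table held 8 of the 10 genes, all but Slc2a3 and Slc5a9. Capitals mark matches to the GC box letters GGGCGG on either strand. In the 250 bases before the RefSeq start, Slc2a1 had 2 GC boxes and 13 CpG dinucleotides, Slc2a5 had 3 and 15, and Slc5a1 had 0 and 6. Of all 32851 promoters of the same length, 32.7% held a GC box, and the median promoter had 6 CpG and 52.4% G and C. The letters TATAAA, on either strand, occurred in 12.4% of all promoters and among these 8 genes in Slc5a4a, and the letters GTTAAT, part of the site of the enterocyte factor HNF1, in 6.43% of all promoters and in none of the 8. The stretches end before the first base that GENCODE assigns to the gene, at chr4:119108495-119108710 for Slc2a1, chr5:33103969-33104218 for Slc5a1 and chr4:150119094-150119282 for Slc2a5, all on the plus strand. Of the 250 bases, 216 are thus printed for Slc2a1 and 189 for Slc2a5, while the counts and shares are of all 250. The other GC box of Slc2a1 lies in the part not printed. The share of G and C in the promoter of Slc5a1 was 60%.
Slc2a1: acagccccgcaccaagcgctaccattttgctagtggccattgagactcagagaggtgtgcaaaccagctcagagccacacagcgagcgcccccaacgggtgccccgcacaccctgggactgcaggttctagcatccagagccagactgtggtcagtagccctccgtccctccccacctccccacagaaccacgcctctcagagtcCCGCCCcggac
Slc5a1: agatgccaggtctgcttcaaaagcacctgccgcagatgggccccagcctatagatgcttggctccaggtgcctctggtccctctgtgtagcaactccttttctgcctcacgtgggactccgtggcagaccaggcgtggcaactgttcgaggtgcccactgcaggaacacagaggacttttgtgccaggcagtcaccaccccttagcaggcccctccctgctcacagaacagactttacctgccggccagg
Slc2a5: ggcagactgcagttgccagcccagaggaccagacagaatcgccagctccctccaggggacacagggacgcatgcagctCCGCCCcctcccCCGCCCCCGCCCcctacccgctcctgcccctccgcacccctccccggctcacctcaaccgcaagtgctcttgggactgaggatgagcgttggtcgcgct

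Among the facilitative carriers of the enterocyte, the transcripts were scarce. Slc2a2 (chromosome 3, 28697903 to 28731359, plus strand) had 2.44, 3.05 and 0.80 TPM in replicates 4, 5 and 6 and a listed value of 0 in the first 3. These 2 sets of libraries also differ in Gm20594, at 15588 to 21283 TPM in replicates 1 to 3 and 51805 to 56441 TPM in replicates 4 to 6, and its part in the values of Slc2a2 was not tested. Slc2a5, the fructose carrier (chromosome 4, 150119283 to 150144169, plus strand), had 0.90, 0.06 and 0.61 TPM in replicates 3, 4 and 5 and was listed at 0 in the others. Slc2a7, its neighbour on the chromosome (150148972 to 150168482, plus strand) and a carrier found in the intestine, had 1.53 TPM in replicate 4 and 1.48 TPM in replicate 6 and was listed at 0 in the other 4 libraries. None of the 3 genes was above 0 in replicates 1 and 2, and replicate 4 was the single library in which all 3 were.

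Slc2a8, which encodes a carrier held mainly on membranes inside the cell (chromosome 2, 32972990 to 32982083, minus strand), had the highest mean of the 8 scarce genes, 3.67 ± 2.37 TPM (SD, n = 6). From replicate 1 to replicate 6 the values were 3.48, 7.38, 4.39, 3.61, 3.18 and 0 TPM. Replicate 6 was therefore without it and the other 5 libraries had it at 3.18 TPM or more. Slc2a3, which encodes the high-affinity carrier GLUT3 of neurons (chromosome 6, 122727809 to 122801640, minus strand), was listed at 0 in all 6 libraries. Without read numbers, no limit of detection goes with such a 0.

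Of the sodium-coupled carriers other than Slc5a1, Slc5a9, which encodes the mannose and glucose carrier SGLT4 (chromosome 4, 111875375 to 111902918, minus strand), had 3.00 ± 2.52 TPM (SD, n = 6). In replicates 1 to 6 it had 2.57, 2.07, 1.97, 7.45, 0 and 3.94 TPM, so that, as with Slc5a1, replicate 4 was highest. Slc5a4a and Slc5a4b, which lie near each other on chromosome 10 (76147451 to 76189265, plus strand, and 76057494 to 76110961, minus strand), are the mouse counterparts of the human gene for SGLT3, which senses glucose and carries little of it. Slc5a4a had 1.82, 1.54 and 3.02 TPM in replicates 2, 3 and 5 and was listed at 0 in replicates 1, 4 and 6. Slc5a4b was listed at 0.10 TPM in replicate 2 and at 0 elsewhere. Slc5a4a was thus the higher in replicates 2, 3 and 5, and both were at 0 in the other 3 libraries. The difference within this pair was 0.79 ± 0.89 on the log2(TPM + 1) scale (SD, n = 6). Its exact sign-flip p of 0.25 (0.35 after adjustment) is the smallest that so many tied libraries allow, so the test cannot decide whether the pair differs.

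Tas1r3 had 5.74, 10.6, 0.60, 5.74, 3.74 and 2.00 TPM in replicates 1 to 6. Set against it within each library, 2 carriers were higher in 6 of 6 libraries, Slc2a1 by 3.90 ± 0.74 and Slc5a1 by 3.71 ± 1.15 on the log2(TPM + 1) scale (SD, n = 6). Both had the smallest exact p that sign-flips of 6 libraries allow, 0.03125, and after Benjamini-Hochberg adjustment over the 10 genes it was 0.0521, above 0.05. Another 4 genes were lower than Tas1r3 in 6 of 6 libraries with the same p and adjusted p, Slc2a3 by 2.26 ± 1.01, Slc5a4b by 2.24 ± 0.97, Slc2a7 by 1.82 ± 1.25 and Slc2a2 by 1.48 ± 1.33. As Slc2a3 was at 0 throughout, its difference is the level of Tas1r3 itself, and its p was fixed once Tas1r3 was above 0. For genes at or near 0 the pseudocount sets the size. With pseudocounts of 0.1 and 0.01, the difference from Tas1r3 was -5.16 and -8.42 for Slc2a3 and -3.82 and -6.01 for Slc2a7. Slc2a5 and Slc5a4a were each lower in 5 of 6 libraries (exact adjusted p = 0.0893 and 0.117). Slc2a8 was also lower in 5 of 6 libraries, and Slc5a9 in 3 of 6. Slc2a8 differed from Tas1r3 by -0.27 ± 1.10 and Slc5a9 by -0.52 ± 1.37, both smaller than their spread (exact sign-flip p = 0.531 and 0.406). The exact Mann-Whitney test, which the methods name and which takes no account of the library a value came from, put 8 of the 10 adjusted p below 0.05, all but those of Slc2a8 and Slc5a9. Since all 10 comparisons use the same values of Tas1r3, they are not independent. The partners of Tas1r3 were in the range of the scarce carriers, with Tas1r1 at 0 to 2.38 TPM and Tas1r2 at 0 to 1.32 TPM.

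Of the 7 pairs of carriers compared by role, Slc5a1 exceeded Slc2a5 in 6 of 6 libraries by 5.68 ± 0.66 and Slc2a2 by 5.19 ± 0.70 on the log2(TPM + 1) scale (SD, n = 6). Slc2a1 exceeded Slc2a2 by 5.38 ± 1.17 and Slc2a3 by 6.15 ± 0.46, also in 6 of 6 libraries. These 4 differences had an exact sign-flip p of 0.03125, adjusted over the 7 pairs to 0.0547, while the exact Mann-Whitney test gave each an adjusted p of 0.00379. As Slc2a3 was at 0 throughout, its difference from Slc2a1 is the level of Slc2a1 itself, and the p was fixed once Slc2a1 was above 0. The sizes depend on the pseudocount, and that of Slc5a1 from Slc2a5 was 8.13 with a pseudocount of 0.1 and 10.0 with 0.01. Slc2a2 and Slc2a5 differed by 0.49 ± 0.98, less than their spread (exact sign-flip p = 0.375). Both were at 0 in 2 libraries, so this test could not pass 0.05. The order of mean TPM ran from Slc2a1 and Slc5a1 over Slc2a8, Slc5a9, Slc5a4a, Slc2a2, Slc2a7, Slc2a5 and Slc5a4b to Slc2a3. It was taken from the same values, so the tests of its 9 steps between neighbours only describe their separation. The step from Slc5a1 to Slc2a8 (3.98 ± 1.25) was higher in 6 of 6 libraries. It was the single step with an unadjusted sign-flip p below 0.05 (exact p = 0.03125, adjusted over the 9 steps to 0.281). The other 8 steps lay between 0.02 and 0.93 and had exact unadjusted sign-flip p of 0.219 or more. The steps from Slc2a8 to Slc5a9 and from Slc5a9 to Slc5a4a could have passed 0.05 before adjustment and did not. In each step from Slc5a4a downwards, both genes were at 0 in 1 or more libraries. Even with 5 libraries left the smallest p is 0.0625, so the test could not tell those neighbours apart. With those steps among the 9, no step could reach an adjusted p below 0.05. Genes farther apart in the order were not compared except in the pairs by role.

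The levels of the carriers were set against the tuft cell and enterocyte lists across libraries. Slc2a1 was high where the tuft cell list was high, with a Pearson r of 0.937 over 6 libraries (exact permutation p = 0.00972, adjusted p over 12 relations = 0.117; Spearman rho = 0.829, exact p = 0.0583, adjusted p = 0.35). With replicates 1 and 2 left out, which lie farthest from the list's median, r was 0.931, but replicates 3, 5 and 6 lie together and that value rests on replicate 4. Slc2a1 did not follow the enterocyte list (r = 0.09, exact permutation p = 0.842). Ptprc, the gene of CD45, was also high in replicates 1, 2 and 4, at 171, 156 and 110 TPM, and had 84.5, 77.4 and 74.2 TPM in replicates 3, 5 and 6. Of the other T cell markers, Gzma had 10.4 TPM in replicate 1 and its highest values, 141 and 158 TPM, in replicates 5 and 6. Hba-a1 was at 669, 950, 35.0, 1.61, 167 and 23.1 TPM in replicates 1 to 6. Whether Ptprc came from tuft cells or from immune cells was not tested, nor was the part of blood or immune cells in the level of Slc2a1. The summed TPM of the enterocyte list was highest in replicate 1, and its mean on the log2 scale, used here, in replicate 4. Slc5a1 had an r of 0.578 with that mean (exact permutation p = 0.213; rho = 0.714, exact p = 0.136) and of -0.50 with the tuft cell list (exact permutation p = 0.322), and neither passed 0.05. The value for the tuft cell list turned to 0.956 without replicates 1 and 2. Slc2a2 had an r of 0.888 with the enterocyte list (exact permutation p = 0.025, adjusted p = 0.15; rho = 0.880, exact p = 0.05), with 3 of its 6 values at 0. The other 3 genes averaging 1 TPM or more, Slc2a8, Slc5a9 and Slc5a4a, had r between -0.31 and 0.42 with the lists, and no adjusted p of the 12 passed 0.05. Replicates 1 to 3 and 4 to 6 differ in Gm20594 and hold too few libraries each for a correlation within them.

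**Figure D3:**
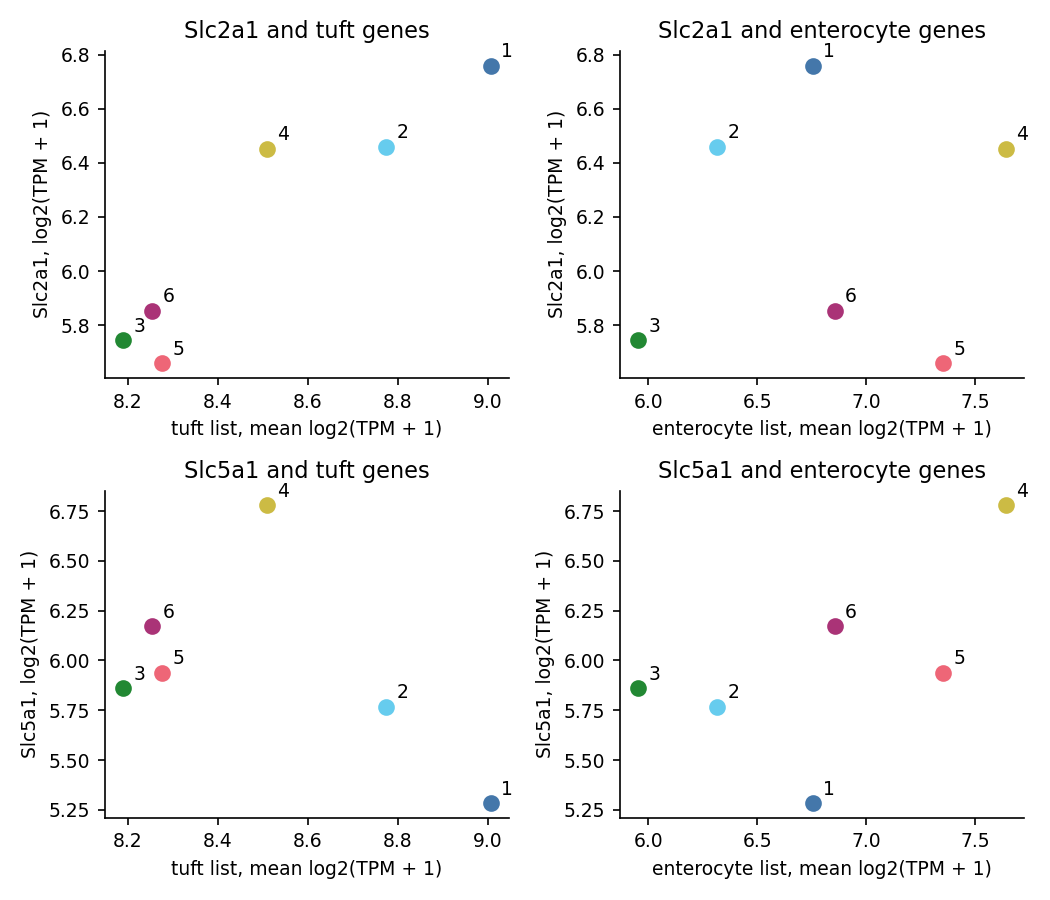
Level of Slc2a1 (top) and Slc5a1 (bottom) on the log2(TPM + 1) scale (vertical axes) against the mean log2(TPM + 1) of 12 tuft cell genes (left) and 13 enterocyte genes (right). Each numbered point is the library of that replicate. Slc2a1 is high with the tuft cell genes in replicates 1, 2 and 4, and Slc5a1 is highest in replicate 4, where the enterocyte genes are highest.

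By the profile over 6 libraries, the genes most like Slc2a1 among the other 8934 were Gpx4, a glutathione peroxidase gene (r = 0.996), Fam101a and Efnb2, an ephrin gene (r = 0.990), all with their highest values in replicate 1. A further count shows how common such profiles are, with 195 genes at an r of at least 0.9. The genes most like Slc5a1 were Apob, which encodes the apolipoprotein of chylomicrons and is 1 of the 13 enterocyte markers (r = 0.987), Pdcd10 (r = 0.986) and Spata5 (r = 0.977), with 34 genes at 0.9 or more. Apob had 8.99, 14.8, 13.6, 29.6, 15.9 and 20.4 TPM in replicates 1 to 6, lowest in replicate 1 and highest in replicate 4 as Slc5a1 was. Of the 13 enterocyte markers, 9 were highest in replicate 4, but Apob was the 1 marker that was lowest in replicate 1, and Fabp1 was highest there. With 6 points and shared libraries these likenesses are descriptions.

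Carriers outside the 10 were also present. Of 11 further carriers of sugars or polyols, 7 were above 0 in every library, against 47.2% of all genes. Slc5a2, the renal glucose carrier SGLT2, was at 0 in all. The sum of the 11 was 249.5 and 180.0 TPM in replicates 1 and 2, above the sum of the 10 carriers there (151.4 and 151.9 TPM). It was below that sum in the other libraries. Slc50a1, a sugar efflux carrier, had 53.7 ± 14.7 TPM, near the level of Slc5a1. Slc2a6, which encodes GLUT6, had 143, 73.1, 21.1, 15.3, 33.5 and 11.8 TPM in replicates 1 to 6, a far wider range than Slc2a1 had, with replicate 1 above all others. Slc2a10 had 22.6 ± 10.5 TPM (SD, n = 6). The insulin-responsive carrier gene Slc2a4 stayed at or below 1.36 TPM.

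Genes that make and use the sugars carried by these proteins were measured at higher levels than most of the carriers. Of the 4 disaccharidases of the brush border, all above 0 in every library, Mgam had 152.5 ± 20.3 TPM and Sis 76.2 ± 35.8 TPM, while Lct and Treh had means of 2.73 and 2.08 TPM. Sis, sucrase-isomaltase, was highest in replicate 4, at 126 TPM. Of 11 genes found for trapping hexoses and using fructose, 8 were above 0 in every library. The share of all genes, 47.2%, goes beside both counts. Khk, which phosphorylates fructose once it is inside the cell, had 46.6 to 80.5 TPM (median 53.7), while the fructose carrier Slc2a5 had at most 0.90 TPM. Galk1, which phosphorylates galactose, had 138.6 ± 19.6 TPM, and the hexokinase gene Hk3 was at 0 in all libraries.

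All 10 listed regulators of these genes were above 0 in every library. The share of all genes, 47.2%, goes beside this count and those of the lists below. Hnf4a had 133.9 ± 20.5 TPM and Mlx, the partner of the glucose-responsive factor ChREBP, 120.5 ± 21.7 TPM (SD, n = 6). Txnip, which promotes removal of GLUT1 from the cell surface, had 67.8 ± 21.8 TPM. Of 7 genes of the sodium pump and the ATP-sensitive potassium channel, 5 were above 0 in every library. The sodium pump genes Atp1b1 and Atp1b3 had 449.7 ± 127 and 37.0 ± 13.8 TPM (SD, n = 6). The channel genes Kcnj11 and Abcc8, which serve glucose sensing in pancreatic beta cells, had 0.88 to 5.46 and 1.64 to 5.73 TPM and were above 0 in all 6 libraries, while Kcnj8 was at 0 in all. Among 9 genes of taste transduction, 6 were above 0 in every library, led by Trpm5 at 1141 ± 211, Gng13 at 363.5 ± 71.0 and Plcb2 at 249.4 ± 48.8 TPM (SD, n = 6). Trpm5 thus exceeded every carrier gene in every library.

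**Figure D4:**
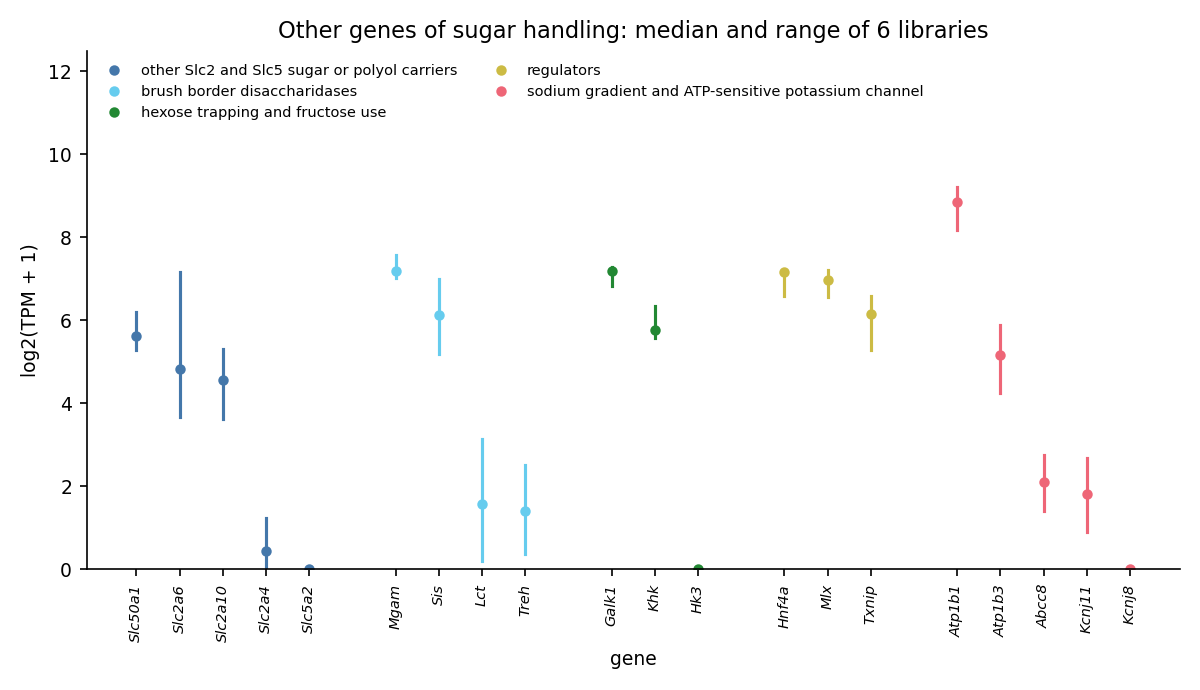
Level on the log2(TPM + 1) scale (vertical axis) of the named genes of 5 lists around sugar handling (horizontal axis, grouped by colour). Points are medians and lines run from the lowest to the highest of the 6 libraries. Khk and Galk1 are abundant in every library, while Hk3, Slc5a2 and Kcnj8 are at 0.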

How the data were processed

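Ileal GFP+EpCam+CD45- cells of 6 mouse replicates were analysed as 1 group. The authors prepared libraries by a modified SMART-Seq2 protocol, although the labels also name 3' and droplet preparations, aligned paired-end reads with Bowtie to the mm10 transcriptome and deposited gene TPM from RSEM. Per the labels TopHat and DESeq2 were also named, and no count model was run here, since TPM keeps no read number and the depth of each library is unknown. Table columns were matched to replicates by number.

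Values were compared as log2(TPM + 1) within libraries by an exact permutation test that flips the signs of differences in all 64 ways (two-sided), with Benjamini-Hochberg adjustment over 10 comparisons with Tas1r3, 7 pairs and 9 neighbours. The alternative was the Mann-Whitney test, exact over 924 assignments. Correlations used all 720 pairings and 12 relations, for carriers averaging 1 TPM or more. List scores are means of log2(TPM + 1). The members and lists were chosen with earlier results of these data known. Genes named are the members, the taste receptors, the 3 most abundant genes of each pathway list and those at 0 throughout, the leading gene of each cell type list and the 3 genes most like each abundant carrier. Some genes under this rule are not reported here. Apart from these, Treh, Slc2a4, Kcnj11, Abcc8, Gzma, Gzmb, Cd3g, Cd3e, Cd8a, Hba-a1, Gm20594 and Gm12868 were named after values were seen. So was the coding stretch shown, chosen as the most alike.

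Other alternatives were pseudocounts of 0.1 and 0.01, setting values under 0.1 TPM to 0, rescaling without Rn45s and Gm20594 or by median-of-ratios factors, list medians, other detection thresholds and leaving out each library. Positions and coding sequences are from GENCODE M21 on GRCm38, the assembly of mm10, though the gene models may differ from the authors'. The search for like genes was tested on simulated data. Tkfc and Hbb-bs were not found in the table. Tools were scipy 1.17.1, pandas 2.3.3 and numpy 2.4.6 in Python 3.11.15, with figures by matplotlib 3.10.9.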

Additional observations from a re-analysis of the deposited data

Results flagged for a closer look

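The carriers, the named pathway genes, the list scores and the ratio of Slc5a1 to Slc2a1 were screened, 39 measures in all. In 3 of them a single library lay farther from its nearest neighbour than about 1 group in 20 would by chance (Dixon's ratio for 6 libraries). At that rate 1.95 of 39 would do so by chance, but the rate is for normally distributed values. It does not hold for genes at 0 in most libraries, as Slc5a4b and Tas1r2 were. Slc5a4b was at 0.10 TPM in replicate 2 and at 0 in the other 5 libraries, which gives the largest possible ratio whatever the value. Tas1r2 was at 1.32 TPM in replicate 5 and at most 0.19 TPM elsewhere. Khk, the gene of ketohexokinase, was at 80.45 TPM in replicate 4 and at most 58.45 TPM elsewhere (ratio 0.650). Replicate 4 was also the library with the highest Slc5a1, Slc5a9, Slc2a7, Sis and Lct, though the gap was not as wide for any of these. Their causes were not tested.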

How the results depend on the processing

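Slc2a1 and Slc5a1 were the carriers above 0 in every library at each detection threshold tried, and their order above the other 8 genes follows from values that do not overlap. The number of carriers with an adjusted p below 0.05 against Tas1r3 was 0 by the sign-flip test and 8 by the exact Mann-Whitney test. The first number stayed at 0 under every pseudocount, filter and rescaling, which says nothing of stability, since these leave the signs within a library as they are and the smallest p is 0.03125. That number went from 0 to 4 of 7 for the pairs by role and from 0 to 1 of 9 for neighbours. By the unadjusted sign-flip p, 6, 4 and 1 of these were below 0.05. The sign-flip number of 0 for neighbours was fixed in advance, since most of the 9 steps could not reach the smallest p. No paired analysis was possible because there is no second group whose replicates could be matched, and the pairing used is of genes within a library.

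Leaving out each library, the count of carriers that varied at least 2-fold lay between 1 and 2, with 1 without replicate 1 and without replicate 4. The differences lay between -0.069 and 0.29 for Slc2a1 and Slc5a1, -0.26 and 0.40 for Slc5a4a and Slc2a2, -0.11 and 0.77 for Slc2a8 and Slc5a9, -0.0038 and 0.49 for Slc2a2 and Slc2a7, and -0.072 and 0.38 for Slc2a7 and Slc2a5. A pseudocount of 0.01 turned the difference of Slc2a7 from Slc2a5 to -0.13, and median-of-ratios rescaling that of Slc5a4a from Slc2a2 to -0.0092. None of these passed a test, and pairs with both genes at 0 in any library could not pass the sign-flip test. Pseudocounts of 0.1 and 0.01 enlarged the differences of Slc2a1, Slc5a1 and Tas1r3 from genes at or near 0, so those sizes are not fixed fold differences.

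Correlations with the enterocyte list turned to -0.12 for Slc5a9 with a pseudocount of 0.1 and to 0.19 for Slc2a8 with the median of the list. Without the farthest pair of libraries they turned to -0.71 for Slc2a1, -0.67 for Slc5a9 and 0.24 for Slc5a4a, and correlations with the tuft cell list to 0.956 for Slc5a1 and 0.650 for Slc2a2. The r of Slc2a1 with the tuft cell list lay between 0.913 and 0.965 under the 2 rescalings, the other pseudocount and the list median. The r of Slc2a2 with the enterocyte list fell to 0.762 with the list median (exact permutation p = 0.108). Rescaling without Rn45s and Gm20594, which raises every value, took the means of Slc2a1 and Slc5a1 to 105.8 and 95.4 TPM. The causes were not tested. As depth is unknown, how far values of 0 reflect shallow sequencing cannot be given.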
